A study of Brassica juncea with 4 samples.

Results

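miR395 is a family of plant microRNAs (miRNAs) that pairs with transcripts of sulfate metabolism, among them those of ATP sulfurylase (APS), the enzyme that activates sulfate in the first step of its assimilation. Its level and the cleavage of its APS targets are described here in floral buds of Brassica juncea. The members are all miR395 entries in the deposited miRNA profile, from either arm of the hairpin, and all miRNA targets listed for them in the deposited degradome tables. They came to 5 of 288 entries, which hold 3 of 248 distinct sequences, and to 2 of 446 target genes, APS1 (AT3G22890) and APS4 (AT5G43780). The choice used names and not levels.

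The study compared a cytoplasmic male sterile (CMS) line, which makes no functional pollen, with its maintainer fertile (MF) line. The CMS line carries the cytoplasm of B. rapa with a nucleus brought over from fertile B. juncea by repeated backcrossing, and the MF line is the fertile, selfed parent of those backcrosses. RNA came from all floral buds of an inflorescence, pooled over several plants of each line. Each line gave 1 small RNA library and 1 degradome library, so that every test below compares 2 libraries and not the lines, and every interval covers counting error only.

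In Arabidopsis, miR395 is known to accumulate when sulfate is scarce, and its known targets are APS1, APS3 and APS4 and the low-affinity sulfate transporter SULTR2;1. A plant miRNA guides an Argonaute protein to a nearly complementary stretch of a transcript, which is cut opposite the middle of the miRNA. The degradome method sequences the 5′ ends of the cut transcripts. CleaveLand, the program used by the authors, sorts each such site into categories, from 0 for a site that alone holds the most reads of its transcript, through 1 for one that shares the most, 2 for one above the median and 3 for one at or below it, to 4 for a site with 1 read. No expression values of the target genes were analysed here.

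The sequences of the family were compared first, because they decide which reads can be told apart. In the lines that follow, bases 2 to 8 from the 5′ end, the seed, are in capitals. The first 3 sequences had reads, and the last was marked as not detected in either library.
ath-miR395a: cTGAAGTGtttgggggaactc
ath-MIR395c-p5: gTTCCCTTtaacgcttcattg
ath-MIR395e-p5: gTTCCTCTgagcacttcattg
ath-miR395b: cTGAAGTGtttggggggactc
The mature miRNA, ath-miR395a, comes from the 3′ arm. The entries named miR395a, miR395c and miR395d all carry this 1 sequence, so their 3 equal values are 1 measurement. The b, c and f forms of the mature miRNA in the detection table have the last sequence and differ from ath-miR395a by A17G, counted from the 5′ end, which leaves the seed the same. Among the 248 distinct sequences of the profile, 1 sequence holds the miR395 seed at bases 2 to 8, and it is ath-miR395a itself.

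The profile entry named ath-miR395c does not carry the c form. It carries the ath-miR395a sequence and is placed on the hairpin MIR395e, and no entry of the profile is named miR395e. The detection table lists 6 hairpins, MIR395a to MIR395f, and marks the mature forms a, d and e as detected in both libraries. The label of that entry therefore goes against its own sequence, and its reads are given here under ath-miR395a.

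Of the 6 hairpins, 4 have an entry with coordinates in the profile, all on chromosome 1 of the Arabidopsis genome, TAIR10. The places of MIR395b and MIR395f were not analysed here. The authors had no genome of B. juncea, so these loci and folds are those of Arabidopsis, not of the plant sequenced. The 4 hairpins are printed below as deposited, with each arm that has listed reads in capitals. The hairpin MIR395a lies at chr1:9363196-9363288 on the minus strand, MIR395c at chr1:9367053-9367179 on the plus strand, MIR395d at chr1:26269959-26270091 on the minus strand and MIR395e at chr1:26272773-26272875 on the minus strand.
ath-MIR395a: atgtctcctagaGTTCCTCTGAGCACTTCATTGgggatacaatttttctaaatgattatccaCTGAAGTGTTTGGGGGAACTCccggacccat
ath-MIR395c: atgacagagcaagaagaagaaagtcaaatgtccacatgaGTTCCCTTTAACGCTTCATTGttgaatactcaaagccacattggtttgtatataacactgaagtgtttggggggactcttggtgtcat
ath-MIR395d: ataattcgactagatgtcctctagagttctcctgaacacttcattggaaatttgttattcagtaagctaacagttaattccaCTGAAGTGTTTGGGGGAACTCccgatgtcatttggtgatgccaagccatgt
ath-MIR395e: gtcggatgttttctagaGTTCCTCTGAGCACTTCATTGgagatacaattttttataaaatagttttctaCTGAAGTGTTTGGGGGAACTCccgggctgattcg
Among these 4, MIR395a and MIR395c lie 3764 bases apart on opposite strands, and MIR395d and MIR395e lie 2681 bases apart on the same strand, with 16902779 bases between MIR395c and MIR395d.

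The mature sequence is found in MIR395a, MIR395d and MIR395e, and its reads cannot be assigned to any of them. The same holds for ath-MIR395e-p5, whose sequence is in both MIR395a and MIR395e. By contrast, ath-MIR395c-p5 is found in the b and c hairpins and in none that gives ath-miR395a. Thus the Arabidopsis hairpin MIR395c was listed with B. juncea reads that match its 5′ arm. Its 3′ arm, the c form of the mature miRNA, was marked as not detected, as the map of the hairpin arms shows. Which loci of B. juncea gave the reads was not analysed.

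**Figure D1:**
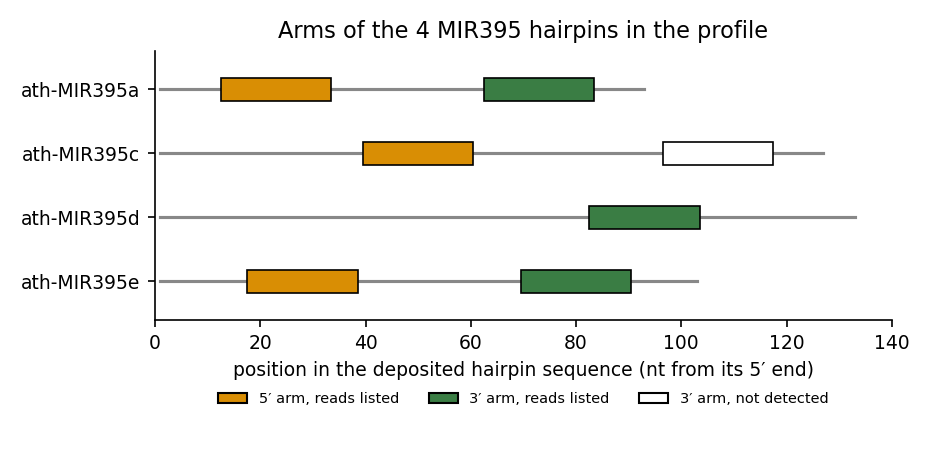
Position of each miR395 arm (boxes) along the 4 Arabidopsis hairpins with a profile entry (grey lines), in nucleotides from the 5′ end of the deposited hairpin sequence. Orange boxes are 5′ arms and green boxes 3′ arms with listed reads, and the white box is the 3′ arm of MIR395c, marked as not detected, while MIR395d has no listed 5′ arm.

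The 4 Arabidopsis hairpins were 93 to 133 bases long. Their deposited folding energies ran from −41.6 to −50.1 kcal/mol, their GC contents from 40.2% to 44.1%, and their minimal folding free energy indices, which correct the energy for length and GC content, from 0.9 to 1. In the deposited structures, 18 of the 21 bases of every listed arm were paired. In MIR395a, MIR395c and MIR395e, 16 pairs joined the 5′ and 3′ arm sequences directly, and the 3′ arm ran 2 bases past the partner of the first base of the 5′ arm. The overhang at the other end could not be read, because the first base of the 3′ arm was unpaired. DICER-LIKE1, the RNase III enzyme that cuts plant miRNA duplexes out of their hairpins, usually leaves short 3′ overhangs.

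The small RNA libraries differed in depth. MF had 11845753 raw reads, of which 7331757 (61.9%) were mappable, and CMS had 3339182, of which 3192676 (95.6%) were mappable. The reads of all miRNAs summed to 90880 in MF and 105033 in CMS. The order of the libraries thus depends on the total used, and the levels below are given with the deposited scaling, and then with other totals. The factors of that scaling, 0.896 for MF and 1.12 for CMS, were recovered from the most abundant miRNA, and they are proportional to the inverse of neither the mappable nor the raw totals.

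Of the 3 miR395 sequences, mature miR395a was the one called lower in CMS with the deposited scaling. MF held 40 raw reads of it (95% exact Poisson interval 28.6 to 54.5), whereas CMS held 7 (2.81 to 14.4), which were deposited as normalized values of 36 and 7. With the deposited factors the CMS level was 0.218 times the MF level (95% interval 0.0824 to 0.492), a 4.59-fold lower level and a log2 ratio of −2.20 (−3.60 to −1.02). A sequence was called where all of the tests used by the authors passed, and miR395a was called, with p = 8.96e-06 by Fisher's exact test, p = 9.76e-06 by the chi-squared test and an Audic-Claverie probability of 1.83e-06, under the limit of 4.03e-05. Of all 248 sequences, 8.87% were called lower in CMS, 5.24% higher and 14.1% in either direction.

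The call depended on the total to which the libraries were scaled. In reads per 1000000 mappable reads, miR395a stood at 5.46 in MF and 2.19 in CMS, and the log2 ratio was −1.32 (−2.72 to −0.14), or 2.49-fold lower. Per raw read it was −0.69 (−2.09 to 0.49), or 1.61-fold lower. miR395a was not called on either of these scales, where the Audic-Claverie probability was 0.00311 and 0.0270. These totals moved all miRNAs, not miR395a alone, with 39 sequences called higher and 10 lower per mappable read, 53 and 6 per raw read, and 13 and 22 with the deposited factors. Scaled to all miRNA reads the log2 ratio of miR395a was −2.72 (−4.13 to −1.55), without the most abundant miRNA, miR319a, it was −2.14, and with the median ratio of the sequences it was −2.16, all called. The plot of miR395a under 6 scalings shows the value below 0 in each of them, with an interval that reaches past 0 for raw reads.

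**Figure D2:**
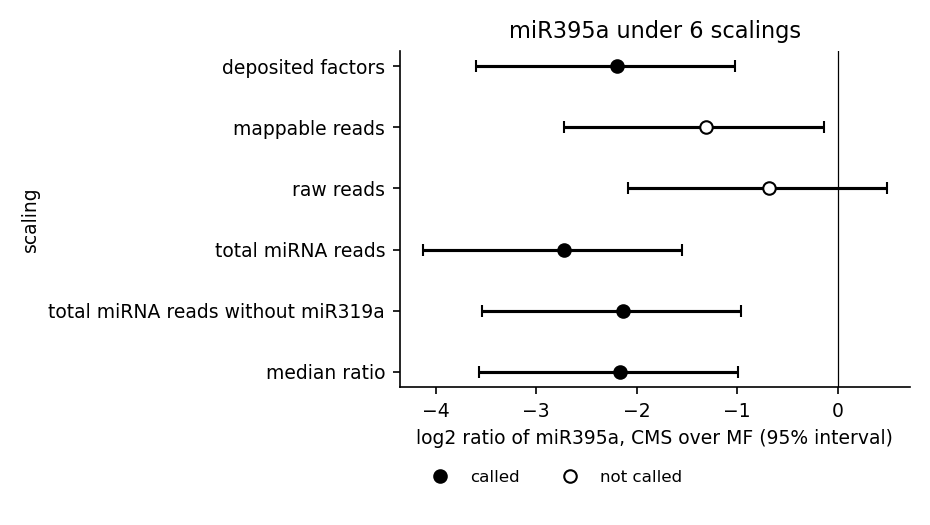
Log2 ratio of miR395a, CMS over MF, with its 95% exact interval (counting error only), under each of 6 scalings of the libraries. Filled points were called and open points were not, and the ratio runs from −2.72 for total miRNA reads to −0.69 for raw reads.

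The 5′ arms, which are usually degraded once the mature strand is loaded, were near the lower end of detection. Of ath-MIR395c-p5, MF held 5 raw reads (exact Poisson interval 1.62 to 11.7) while CMS held 3 (0.619 to 8.77). Of ath-MIR395e-p5, MF held 3 (0.619 to 8.77) while CMS held 2 (0.242 to 7.22). The intervals of the libraries overlapped widely for both. Their log2 ratios were −0.42 (−3.11 to 1.94) and −0.27 (−3.85 to 2.86), neither was called, and Fisher's exact p was 1 for each. At this depth neither a fall as large as that of miR395a nor a rise was detectable. The plot of raw reads by sequence shows these counts before any scaling, so the unequal depth of the libraries is part of every gap in it.

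**Figure D3:**
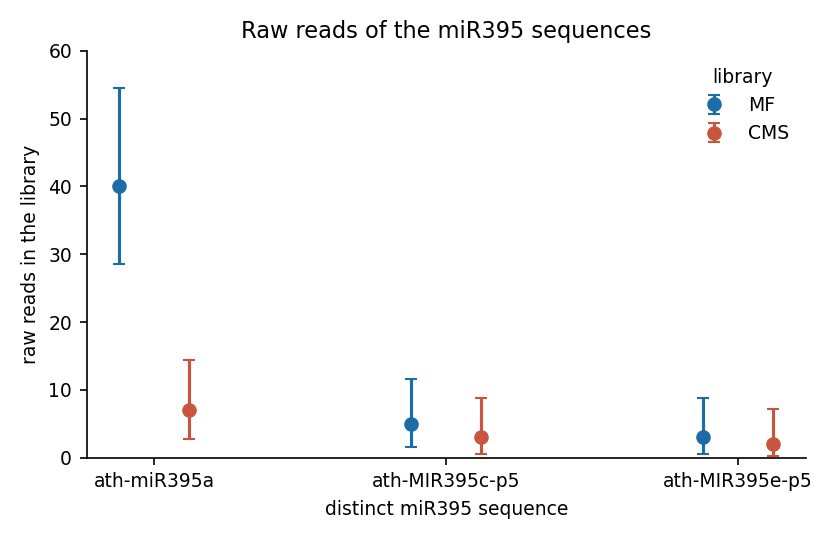
Raw reads of the 3 distinct miR395 sequences in the MF and CMS small RNA libraries, with 95% exact Poisson intervals. miR395a had 40 MF and 7 CMS reads, and both 5′ arm sequences had 5 reads or fewer in each library.

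Summed over the family, MF held 48 reads and CMS 12, a log2 ratio of −1.68 (−2.73 to −0.75), or 3.21-fold lower in CMS, with the deposited factors. It was −0.80 (−1.85 to 0.13) per mappable read and −0.17 (−1.22 to 0.76) per raw read, and both of these intervals included 0. The 5′ arms alone summed to 8 and 5, with a log2 ratio of −0.36 (−2.32 to 1.43). They made up 16.7% of the miR395 reads in MF (95% exact binomial interval 7.48% to 30.2%) and 41.7% in CMS (15.2% to 72.3%). These intervals overlapped, so that a different balance of the arms was not detectable.

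Among all miRNAs, miR395a stood nearer the top of the ranking by reads in MF than in CMS. Its share of the miRNA reads was 0.0440% for MF (exact binomial interval 0.0314% to 0.0599%) against 0.00666% for CMS (0.00268% to 0.0137%), and it ranked 54th of the 228 sequences with reads in MF and 84th of the 173 with reads in CMS. Of the 86 sequences with at least 20 reads over both libraries and reads in each, miR395a had the 11th lowest log2 ratio, against a median of −0.03. Among the 44 sequences with 20 to 100 reads, those closest to it in depth, 8 (18.2%) were called lower.

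**Figure D4:**
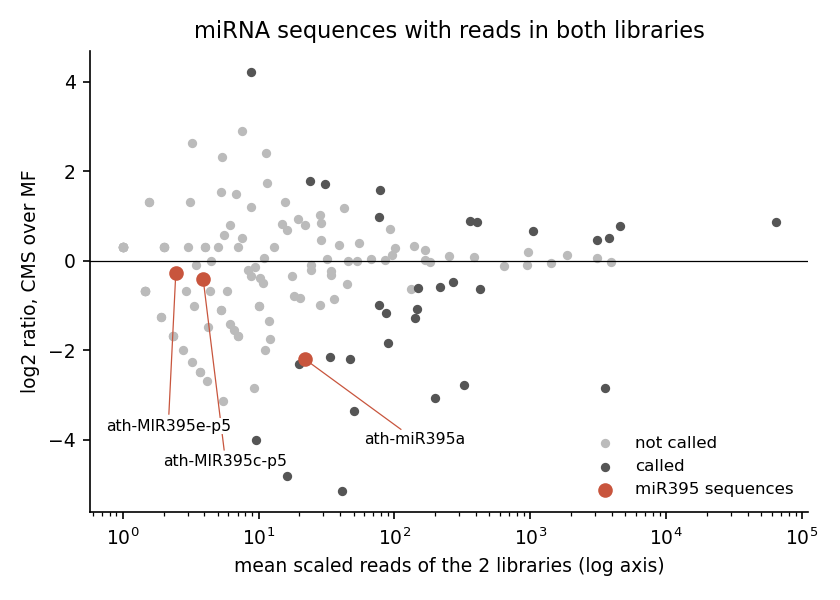
Log2 ratio, CMS over MF, of the 153 miRNA sequences with reads in both libraries against the mean of their scaled reads (log axis, deposited factors), with called sequences in dark grey. miR395a lies among the called sequences at −2.20, and the 5′ arm sequences lie near 0 at the low end of abundance and were not called.

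Among sequences with at least 20 reads over both libraries, the 5 with ratios nearest to that of miR395a belonged to other families, and 3 of them to miR159. The nearest was ath-miR159c_R-2, with 86 and 15 reads (−2.20), also called. Next came ath-MIR159a-p5 with 61 and 11 reads (−2.16) and ahy-miR159_1ss7TC with 37 and 6 (−2.31), both called. The rest of miR159 did not go with these 3. The most abundant form, ath-miR159a, was called higher in CMS, with 3766 and 5143 reads. ath-miR159b_R-1, with 273 and 235, was not called. Of ath-miR156a there were 20 and 4 reads (−2.01) and was not called, and ath-MIR169e-p3 had 157 and 35 (−1.85) and was called. The measure of likeness was the distance between log2 ratios over 1 pair of libraries, so the order among neighbours lies well inside their intervals.

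A short list of other families that respond to copper or phosphate was looked up in the profile. miR398, which targets copper superoxide dismutases, summed to 78 reads in MF and 35 in CMS over 2 sequences, and miR399, which responds to phosphate, had 23 and 9 over 6 sequences, with none called. miR397, which targets laccases, had 2 and 1 reads in 1 sequence. miR408, a copper-responsive family that targets laccases and plantacyanin, had 943 and 1245 reads, and both of its 2 sequences were called higher. miR827 and miR857 were not listed in the profile. The list does not hold every nutrient-responsive family, and miR167 and miR169 respond to nitrogen in Arabidopsis. Several miR167 sequences were called lower in CMS, among them ath-miR167a with 6967 reads in MF and 774 in CMS. ath-miR167c, with 21 and 5, was not called. Of miR169, only the 3′ arm entry ath-MIR169e-p3 was called lower, with 157 and 35 reads. The mature miR169 sequences, such as ath-miR169e with 6 and 1 reads, were not called. Differences between families were not tested.

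Cleavage of the targets was read from the degradome libraries, with 7717843 reads mapped to Arabidopsis cDNA in MF and 4967302 in CMS. The reads of B. juncea could be placed only where they matched an Arabidopsis transcript, and reads from gene copies of B. juncea that match the same transcript were pooled. miR395 had 2 listed targets, both ATP sulfurylase genes. Each listed site lies opposite base 10 of the miRNA. That is where CleaveLand looks for cut ends, so the position is not separate evidence of cleavage by miR395.

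A cleavage site in APS1 was listed in both libraries. The gene lies at 8112723 to 8114992 on the forward strand of chromosome 3 in TAIR10 and encodes a plastid ATP sulfurylase. The site is at base 453 of the 1764-base cDNA of AT3G22890.1, within an alignment from base 442 to base 462 and 25.7% of the way along the transcript. The alignment score, in which 0 is perfect pairing and higher values count mismatches, was 3.5 for the a form and 4 for the b and f forms.

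At this site MF had 4 reads and CMS 5. In reads per 1000000 mapped reads, the MF value was 0.518 (exact Poisson interval 0.141 to 1.33) while the CMS value was 1.01 (0.327 to 2.35), with overlapping intervals. Scaled by mapped reads, the CMS level was 1.94 times the MF level (95% interval 0.418 to 9.79), a log2 ratio of 0.96, and Fisher's exact p was 0.327, or 0.876 after Benjamini-Hochberg adjustment over the 142 sites listed in both libraries. Without scaling the log2 ratio was 0.32. A difference in APS1 cleavage was not detectable at this depth, and 18.3% of the 142 sites passed an adjusted p of 0.05.

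The standing of the site within its transcript differed between the tables. In MF the APS1 site was in category 2, so another position of the transcript held more reads, and the CleaveLand p-value, the program's estimate of the chance of such a site arising at random, was 0.105 for the a form and 0.149 for the b and f forms. In CMS it was in category 1, where the site shared the top of its transcript, with p-values of 0.00465 and 0.00677. A change from category 2 to category 1 was seen at 2 of the 142 sites, APS1 included, while 31 sites moved to a lower category number in CMS, 32 to a higher one and 79 did not move. The category depends on the reads at all positions of the transcript, of which the tables give the cleavage site alone.

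Set against other sites, APS1 was among the better covered. In MF, 295 of the 384 gene sites had fewer reads than APS1, 17 had as many and 72 had more, with a median of 2 reads. In CMS, 227 of the 277 sites had fewer reads, 7 had as many and 43 had more, with a median of 1. Sites with 1 read made up 46.6% of the MF and 51.6% of the CMS sites, and 142 of the 519 sites, or 27.4%, were listed in both. Over those 142 the median scaled log2 ratio was 0.64, and 94 of them (66.2%) were higher in CMS. The value of 0.96 at APS1 was exceeded by 44 sites, as the plot of cleavage reads shows.

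**Figure D5:**
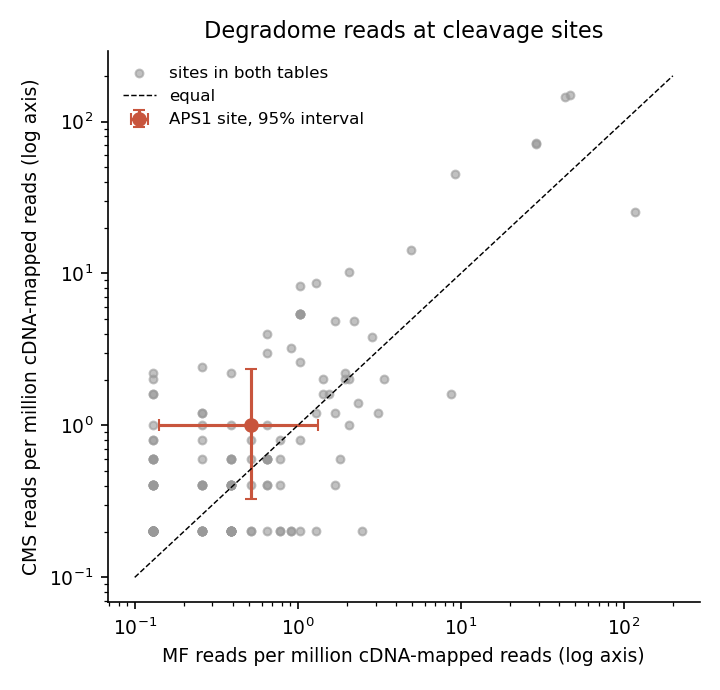
Degradome reads per 1000000 cDNA-mapped reads in MF and CMS at the 142 cleavage sites listed in both tables (log axes), with the line of equal values. The APS1 site, in red with 95% exact Poisson intervals, lies at 0.518 in MF and 1.01 in CMS, and its intervals cross the line.

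APS4 was listed in CMS and not in MF. The gene lies at 17589394 to 17591535 on the reverse strand of chromosome 5, and the degradome table describes it as a member of the pseudouridine synthase and archaeosine transglycosylase-like family, although AT5G43780 is known as APS4. The site is at base 406 of the 1702-base cDNA of AT5G43780.1, in an alignment that ends at base 415, 23.9% of the way along. The alignment score was 1.5 for the a form and 2 for the b and f forms. By this score the Arabidopsis cDNA of APS4 paired better with miR395 than that of APS1. Pairing with the transcripts of B. juncea was not analysed.

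Its evidence was 1 read in CMS, or 0.201 per 1000000 mapped reads (exact Poisson interval 0.00510 to 1.12), in category 4. The CleaveLand p-value was 0.129 for the a form and 0.0613 for the b and f forms, so it passed 0.05 for neither. In the deeper MF library 1 read would have been 0.130 per 1000000 mapped reads. The MF table lists detected sites only, so no MF value can be given, and a difference between the lines was not detectable for APS4.

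Of the 4 Arabidopsis targets of miR395, 1 was thus listed in MF and 2 in CMS, and APS3 (AT4G14680) and SULTR2;1 (AT5G10180) were listed in neither. A further 21 genes of sulfate uptake and assimilation were looked up as targets of any miRNA. Among them were the other ATP sulfurylase APS2, the adenylylsulfate reductases, sulfite reductase, some sulfate transporters, some serine acetyltransferases and the regulator EIL3. None of the 21 genes was listed in MF. In CMS 1 was listed, OASB (AT2G43750), a plastid O-acetylserine(thiol)lyase that makes cysteine, at a category 4 site of pab-MIR947-p3 with 1 read, a score of 4 and a CleaveLand p of 1. The entry pab-MIR947-p3 is 15 bases long. It had 14 small RNA reads in MF and 0 in CMS, the line where the site was listed.

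The level of the miRNA and the cleavage of its target were set side by side. miR395a was lower in CMS by the deposited scaling, at −2.20 on the log2 scale (−3.60 to −1.02), and its APS1 site was at 0.96 with an interval of the ratio from 0.418 to 9.79 that includes equal cleavage. For the other miRNAs called lower in CMS, 6 sites were listed in both degradome tables, and 5 of them were higher in CMS after scaling, with a median log2 ratio of 1.68, against 66.2% of the 142 sites and a median of 0.64 over all of them. At 1 of the 5, AT5G39610, both libraries had 1 read, and the ratio came from the scaling alone. Examples are MYB33 (AT5G06100), a GAMYB-like factor of anther development, whose reads went from 1 in MF to 10 in CMS, and ARF6 (AT1G30330), an auxin response factor of flower maturation, with 5 and 3. The MYB33 site is also listed for ath-miR159a, which was called higher in CMS, with 3766 and 5143 reads, so it is not a site of lowered miRNAs alone. The same holds for AT3G11440, with 5 and 20 degradome reads, which is also listed for ath-miR159a. AT3G15170, with 5 and 15, is also listed for ath-miR164a, which was called higher in CMS, with 283 and 423 reads. The sites listed for lowered miRNAs alone were AT1G30330, AT5G37020 and AT5G39610, with log2 ratios of −0.10, 1.13 and 0.64. The small RNA and degradome values come from single libraries, so no relation between miRNA level and cleavage was tested.

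A forward PCR primer was also designed for miR395a in the study, and it is shown because it bears on which family members an assay can separate. The bases it shares with the miRNA are in capitals.
ath-miR395a forward primer: cgcggCTGAAGTGTTTG
The primer has 17 bases, and its last 12 equal the first 12 of miR395a. Those 12 are the same in the b, c and f forms, since A17G lies beyond them, so this primer alone does not separate the forms. The PCR values were not analysed here.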

How the data were processed

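Pooled floral buds gave the small RNA and degradome libraries, with 1 library per line and assay and 4 in all, and samples were grouped by their deposited labels. The authors removed adapters, compared the small RNA reads with miRBase 18.0, and deposited a count of raw reads per miRNA and a normalized score in whole numbers. The scaling factors were recovered from the most abundant miRNA. The authors mapped the degradome reads to TAIR10 cDNA and ran CleaveLand, and deposited a count of reads per site, a signal that divides those reads by the number of transcripts hit (equal to the reads at both APS sites), an alignment score, a category and a p-value. Deposited log2 ratios and the deposited comparisons of the lines hold the authors' own comparison and were not used.

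Identical sequences were joined. A sequence was called with an Audic-Claverie probability under 0.01 divided by 248 and Fisher's exact and chi-squared p under 0.01, all two-sided except the Audic-Claverie point probability, on normalized values with totals of 1000000. Ratios have exact conditional binomial (Clopper-Pearson) 95% intervals on raw counts. Cleavage sites were joined per gene, scaled by mapped reads and compared by Fisher's exact test with Benjamini-Hochberg adjustment. The code was tested on simulated data. Small RNA depth was 11845753 raw reads in MF and 3339182 in CMS, so ratios of sequences with few reads have wide intervals. Alternatives were other library totals, limits, filters and tests. With no replicate, spread between plants was not measured.

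Named genes are all miR395 entries and their targets, the 5 sequences with at least 20 reads nearest in log2 ratio to miR395a, nutrient miRNA families, and Arabidopsis genes of sulfate uptake and assimilation. The sites of other lowered miRNAs, ath-miR159a, ath-miR159b_R-1, ath-miR164a, ath-miR167a and the miR167 and miR169 families were named after their values were seen. Members and lists were chosen with earlier results of these data known. No genome or transcript sequence was used here. The analysis used scipy 1.17.1 and numpy 2.4.6 under Python 3.11.15, with matplotlib 3.10.9 for plots.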

Additional observations from a re-analysis of the deposited data

How the results depend on the processing

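Over 30 alternatives no value reversed, and 23 kept their side of the threshold, moved by less than the spread or, for counts, stayed within 1.5 times. These 23 include the summed level per mappable read, −0.80, whose interval (−1.85 to 0.13) includes 0, and the 49 sequences called per mappable read, of which 39 were higher and 10 lower, against 13 and 22 with the deposited factors. The log2 ratio of miR395a lost its call with scaling to mappable reads (−1.32) and to raw reads (−0.69), and was called under the other 5 of its 7 alternatives. With raw reads the summed miR395 level was −0.17 (−1.22 to 0.76), and the number of called miRNA sequences was 59 in place of 35. A change of total moves every log2 ratio by the same amount. Why the library totals differ was not tested. Of the cleavage sites of miR395, 0 of 1 in MF and 1 of 2 in CMS had a CleaveLand p under 0.05, and 1 was left in CMS without category 4. No paired analysis was possible because each line has a single library of each kind. Depth limits the 5′ arms, with at most 5 reads, and the APS sites, with at most 5 reads.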
